A study of Homo sapiens with 8 samples.

Results

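The genes described here are 34 members of the machinery that folds and checks proteins in the endoplasmic reticulum (ER), with the sensors of the unfolded protein response. They were chosen by name, as a list of genes of known function, but with earlier results of these data known. All 34 were found among the 17912 genes in the deposited files. They comprise 4 sensors and signalling genes, 18 chaperones and folding enzymes, 9 factors of ER-associated degradation and 3 subunits of the translocon. Gene expression was measured by total RNA sequencing in the human leukemia cell line NKM-1, of myeloid type and labelled as wildtype, after 48 h with SF153 at 30 uM (4 libraries) or with DMSO, the solvent (4 libraries). The series describes SF153 as an inhibitor of splicing factors that carry a U2AF homology motif, and no dose of DMSO is given in the labels. Both treatments were sampled in 2 batches with 2 libraries apiece. A name such as SF153 2.1 gives the batch and then the library within it. The labels do not say whether libraries 1.1 and 1.2 came from separate cultures, so the spread within a batch may be only technical. The p-values reflect the spread among these libraries, which includes any difference between the 2 batches. A stated n of 4 counts libraries, which may not be separate cultures.

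The ER folds proteins that are to be secreted or placed in membranes. When unfolded proteins accumulate there, the sensors ATF6, IRE1 (encoded by ERN1) and PERK (encoded by EIF2AK3) signal to the nucleus and to the ribosome. Active IRE1 removes a short intron from XBP1 mRNA, and the protein made from the spliced form, together with the cleaved form of ATF6, raises transcription of chaperone, degradation and translocation genes. PERK phosphorylates the translation factor eIF2 alpha, which slows protein synthesis and favours translation of ATF4 and then expression of DDIT3.

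The deposited values are a signal that the authors' file labels call both CPM and TPM. Its exact scaling, including any correction for transcript length, is not known, nor is the read depth. Total signal was between 828381 and 1022007 in SF153 libraries and between 990815 and 1027119 in DMSO libraries. Mitochondrially encoded genes took 16.8% in both SF153 libraries of batch 2, against 9.17% and 9.92% in those of batch 1 and 9.38% to 9.63% in DMSO libraries. Mitochondrial and small RNA genes together took between 49.7% and 56.2% in SF153 libraries and between 43.6% and 47.9% in DMSO libraries. All 8 myeloid markers examined were detected, and their summed signal was between 1077 and 1331 in SF153 libraries and between 1661 and 1769 in DMSO libraries. Of 5 lymphoid markers only CD79A was listed, at between 3.39 and 10.1 in SF153 libraries and between 24.7 and 29.4 in DMSO libraries, and no erythroid, epithelial or stromal marker was listed among the genes used here. The part of these shifts in the differences described below was not tested. In bulk RNA of this kind, fewer cells of a type and less RNA per cell cannot be told apart.

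Most ER folding genes had lower mRNA in SF153-treated cells. Of the 18 chaperones and folding enzymes 15 fell, as did the 3 translocon subunits and XBP1. Most degradation factors were not called, and of the sensors only ERN1 was called, higher in SF153. Mean signal was 70.1% lower in SF153 than in DMSO for SEC61G, 61.7% lower for XBP1, 49.0% lower for HSPA5 and 24.5% lower for HSP90B1. Summed over the 34 genes, the signal was 1642, 1640, 1225 and 1215 in SF153 libraries 1.1, 1.2, 2.1 and 2.2, against 2528, 2473, 2305 and 2266 in the DMSO libraries in the same order. The highest SF153 sum was thus below the lowest DMSO sum, and within SF153 the batch 2 libraries were lowest. Total signal was also lower in SF153 2.1 and 2.2 (828381 and 835840) than in 1.1 and 1.2 (1022007 and 1004339). As a share of total signal, the 34 genes took 0.161%, 0.163%, 0.148% and 0.145% in SF153 libraries. In DMSO libraries they took 0.255%, 0.248%, 0.227% and 0.221%, in the same order.

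By limma on log2(signal + 1), with an adjusted p below 0.05 over 15542 genes, 22 of the 34 genes were lower in SF153, 1 was higher and 11 were not called. Over all genes tested, 24.3% were called lower and 13.0% higher, 3770 and 2015 genes. The median log2 difference, SF153 minus DMSO, was -0.63 over the 34 genes and -0.03 over all genes. For the same number of members, 22, every SF153 library lay below every DMSO library, as it did for 23.6% of all genes. For no member did every SF153 library lie above every DMSO library, which 13.2% of all genes did.

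**Figure D1:**
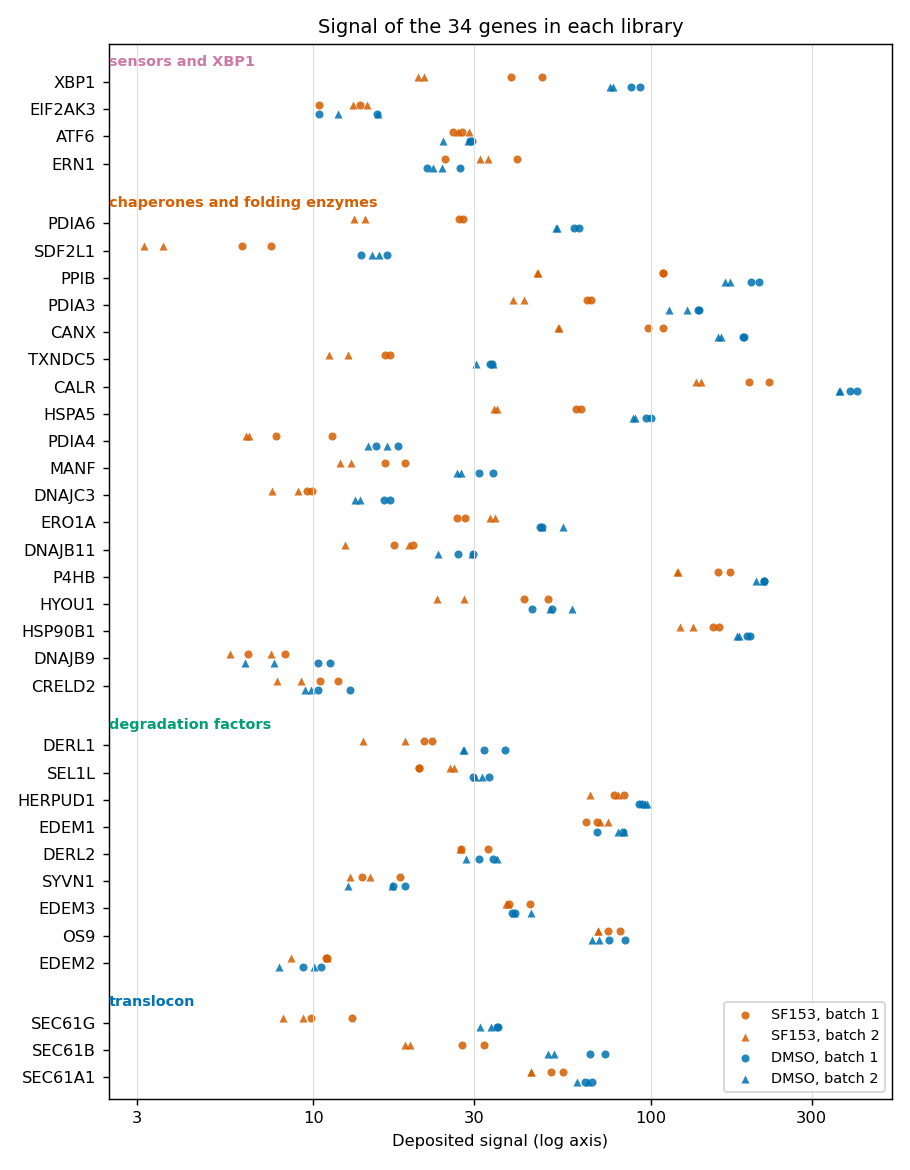
Signal of each of the 34 genes in every library (log10 axis), grouped by role, with SF153 libraries drawn above DMSO libraries and batches marked. For 22 genes the 4 SF153 libraries all lie to the left of the 4 DMSO libraries, and for 12 genes they overlap.

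The size of these differences depended on how the signal was scaled. In one alternative, mitochondrially encoded and small RNA genes were left out and libraries were set to equal totals of the remaining genes. What each of these steps contributed was not tested. The median of all genes was then 0.26, and 16 members were called lower and 5 higher, against 13.8% and 35.0% of all genes (2115 lower and 5382 higher). Relative to the median of all genes the members stood at almost the same place, at -0.55 without those genes and at -0.59 with the deposited scaling. When a trend with transcript length and signal was removed, 19 members were called lower and 1 higher, against 18.6% and 20.3% of all genes (2796 lower and 3058 higher). Quantile normalization called 17 members lower and 1 higher, against 18.1% and 20.8% of all genes (2814 lower and 3230 higher). Averaging both libraries of a treatment within each batch left 2 values per group, 1 for each batch, and 15 members were then called lower and 1 higher, against 16.2% and 5.86% of all genes. Under each of the 3 other scalings, the members called lower were all among the 22.

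**Figure D2:**
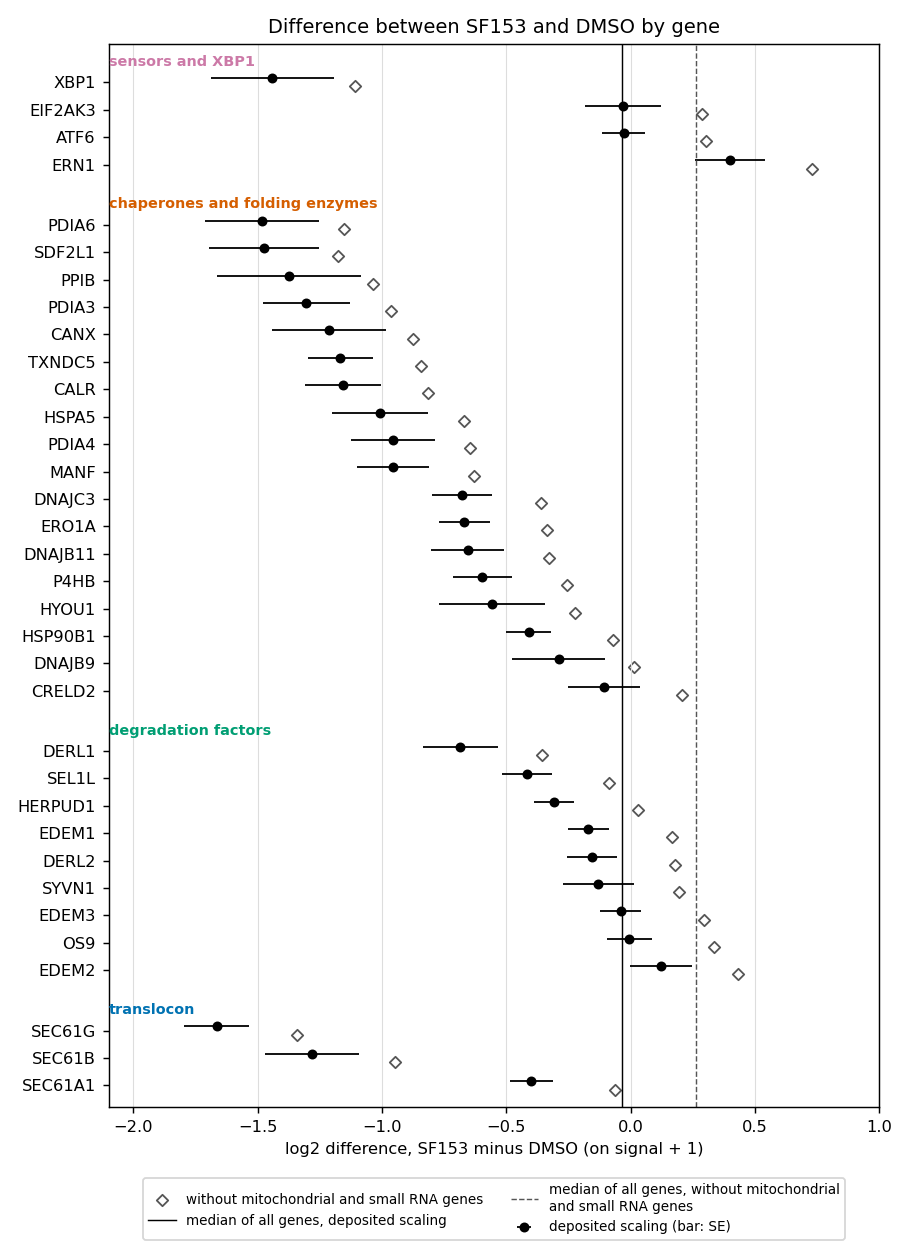
Log2 difference, SF153 minus DMSO, of each gene on the signal + 1 scale. Filled points with bars are the deposited scaling with its SE, open diamonds are values without mitochondrial and small RNA genes, and vertical lines are the median of all genes under each scaling (-0.03 and 0.26). Chaperones and the translocon lie mostly to the left of both lines and degradation factors near them.

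Of the sensors and XBP1, only XBP1 was called lower. XBP1 (ENSG00000100219.17, chr22:28794555-28800597 on GRCh38, minus strand), whose mRNA is the substrate of IRE1, had a signal of 38.4, 47.7, 20.5 and 21.3 in SF153 libraries and of 92.9, 87.5, 75.9 and 77.1 in DMSO libraries. No SF153 library reached the lowest DMSO library, and the batch 2 SF153 libraries were the lowest. XBP1 averaged 32.0 ± 13.4 in SF153 and 83.4 ± 8.24 in DMSO (SD, n = 4 each), a log2 difference of -1.44 ± 0.25 (SE; adjusted p = 0.00159). It remained called lower without mitochondrial and small RNA genes (-1.11, adjusted p = 0.00262). The pseudogene XBP1P1, which can share reads with XBP1, averaged 1.97 in SF153 and 1.14 in DMSO. The gene-level values do not separate the unspliced form of XBP1 from the form spliced by IRE1.

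ERN1 (ENSG00000178607.17, chr17:64039142-64130819, minus strand), which encodes the kinase and RNase IRE1, had a signal of 24.6, 40.2, 31.3 and 32.9 in SF153 libraries and of 21.8, 27.2, 22.7 and 24.0 in DMSO libraries. SF153 1.1 lay below DMSO 1.2, so the groups overlapped. The log2 difference was 0.40 ± 0.14 (adjusted p = 0.0487). The call was lost when SF153 1.2, 2.1 or 2.2 or DMSO 1.1, 2.1 or 2.2 was left out (adjusted p between 0.0855 and 0.117), and with batch as a block (adjusted p = 0.0582), while the difference was 0.73 without mitochondrial and small RNA genes.

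ATF6, a membrane-bound transcription factor released by cleavage in the Golgi, had a signal of 25.9, 27.6, 28.97 and 26.9 in SF153 libraries and of 29.2, 29.5, 28.8 and 24.3 in DMSO libraries. EIF2AK3, the kinase PERK, had a signal of 13.7, 10.4, 13.1 and 14.5 in SF153 libraries and of 10.4, 15.4, 11.8 and 15.6 in DMSO libraries. The groups overlapped for both genes. The log2 differences were -0.03 ± 0.09 for ATF6 (adjusted p = 0.827) and -0.03 ± 0.15 for EIF2AK3 (adjusted p = 0.897). Without mitochondrial and small RNA genes both were positive, ATF6 at 0.30 (adjusted p = 0.0208) and EIF2AK3 at 0.29 (adjusted p = 0.165).

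Promoters of ER stress genes are known for the ER stress response element (ERSE), a CCAAT box followed after 9 bases by CCACG, and for ERSE-II, ATTGG followed after 1 base by CCACG. Both were searched on both strands in RefSeq promoters of GRCh38.p14, from 250 bases before to 50 after each start, a table that held 32 of the 34 genes (PDIA3 and DERL1 had no entry). The ERSE was found in 7 genes, HSPA5, XBP1, PDIA6, CANX, CALR, HSP90B1 and CRELD2. Over the whole table it was found in 25 of 27305 genes (0.0916%) and in 27 of all 35116 promoters (0.0769%). The windows below show these elements because the genes that hold them range from a log2 difference of -1.48 to one of -0.11. They run 5′ to 3′ on the strand of the gene with 20 bases on each side, and capitals mark the short pieces CCAAT and CCACG, which read CGTGG and ATTGG where the element lies on the other strand.
HSPA5 chr9:125241371-125241429 minus strand: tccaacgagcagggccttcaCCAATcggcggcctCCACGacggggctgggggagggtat
XBP1 chr22:28800583-28800641 minus strand: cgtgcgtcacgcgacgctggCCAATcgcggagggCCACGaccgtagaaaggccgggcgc
PDIA6 chr2:10812833-10812891 minus strand: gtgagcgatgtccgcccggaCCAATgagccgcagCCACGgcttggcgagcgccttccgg
CANX chr5:179698758-179698816 plus strand: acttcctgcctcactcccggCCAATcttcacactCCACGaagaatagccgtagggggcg
CALR chr19:12938364-12938422 plus strand: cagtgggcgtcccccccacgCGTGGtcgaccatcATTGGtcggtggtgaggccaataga
HSP90B1 distal chr12:103930196-103930254 plus strand: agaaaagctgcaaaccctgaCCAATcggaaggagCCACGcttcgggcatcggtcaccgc
HSP90B1 proximal chr12:103930301-103930359 plus strand: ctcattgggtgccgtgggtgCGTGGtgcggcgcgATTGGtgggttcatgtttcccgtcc
CRELD2 chr22:49918534-49918592 plus strand: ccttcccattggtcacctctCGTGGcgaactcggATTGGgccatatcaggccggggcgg
In HSPA5 the element began 66 bases before the start, in XBP1 52 bases and in PDIA6 86 bases. The table gave CANX 3 starts, and the same site lay in the window of each. HSP90B1 held the element on both strands.

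ERSE-II was found in SDF2L1, HYOU1 and HERPUD1. Over the whole table it was found in 19 genes (0.0696%) and in 19 of all promoters (0.0541%). Here capitals mark the whole element.
SDF2L1 chr22:21642094-21642144 plus strand: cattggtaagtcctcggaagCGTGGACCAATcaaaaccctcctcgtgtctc
HYOU1 distal chr11:119057360-119057410 minus strand: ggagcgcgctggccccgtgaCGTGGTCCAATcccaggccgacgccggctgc
HYOU1 proximal chr11:119057254-119057304 minus strand: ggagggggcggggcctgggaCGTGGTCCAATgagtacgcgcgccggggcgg
HERPUD1 chr16:56932005-56932055 plus strand: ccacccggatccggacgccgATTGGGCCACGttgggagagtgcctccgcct
HYOU1 held it at 2 places, beginning 185 and 79 bases before the start. The third motif searched was TGACGTG, the core of the unfolded protein response element. It lay in the promoters of HYOU1, SEC61A1 and TXNDC5, and in 2.4% of all genes in the table (1.97% of promoters). The short pieces are common and overlap the longer elements. CCACG alone lay in 24 of the 32 members in the table and in 42.1% of all genes there (38.1% of promoters). CCAAT alone lay in 27 of the 32 members and in 39.7% of all genes there (34.6% of promoters).

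Of the 7 genes with an ERSE, 6 were called lower, with a median log2 difference of -1.16 and a range of -1.48 to -0.11, where 24.3% of all genes were called lower and 13.0% higher. Of the 3 genes with an ERSE-II, 2 were called lower, with a median of -0.56. Of the 22 genes with neither element, 12 were called lower and 1 higher, with a median of -0.41 and a range of -1.67 to 0.40. The ranges overlapped, since SEC61G, PPIB and SEC61B lacked both elements and were among the lowest, and CRELD2 held an ERSE and was not called. Outside the 34 genes, 34 others held either element. Of these, 18 were tested, 7 were called lower and 2 higher, and the median was -0.32. The lowest was SERP1, a stabilizer of translocating membrane proteins, at -1.19 ± 0.14 (adjusted p = 0.000169). A match is a description of these letters and says nothing about binding of a factor.

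**Figure D3:**
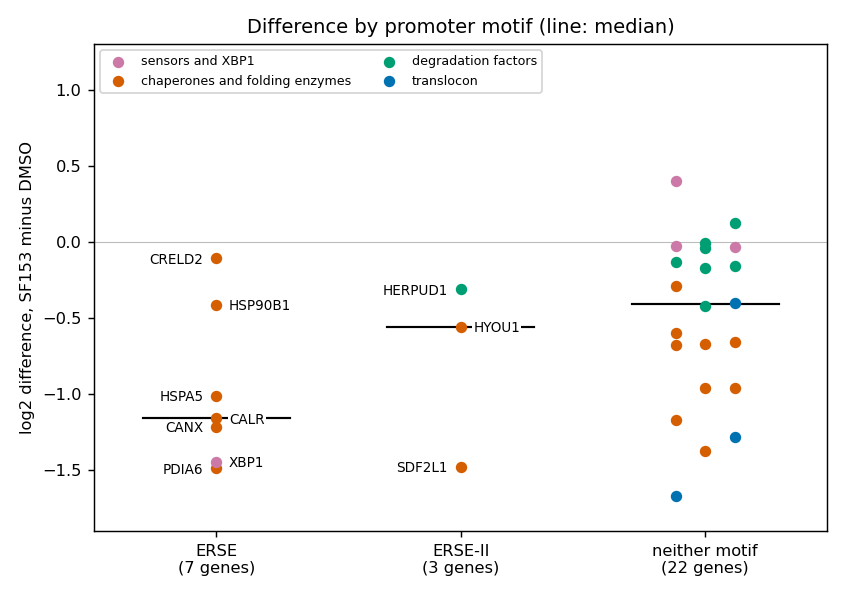
Log2 difference, SF153 minus DMSO, of the 32 genes with a promoter entry, by the element found in the promoter, each point 1 gene coloured by role, with a line at the median. Genes with an ERSE run from -1.48 to -0.11 and overlap those with neither element, which run from -1.67 to 0.40.

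Of the 18 chaperones and folding enzymes, 15 were called lower and none higher, against 24.3% of all genes lower, and their median log2 difference was -0.96. Their summed signal was 1083, 1051, 717 and 698 in SF153 libraries and 1773, 1745, 1620 and 1574 in DMSO libraries. Without mitochondrial and small RNA genes 12 were called lower and none higher, against 13.8% and 35.0% of all genes. Their median was then -0.64, against 0.26 for all genes.

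HSPA5 (ENSG00000044574.9, chr9:125234853-125241330, minus strand), the Hsp70 chaperone BiP that also holds the sensors inactive, had a signal of 60.2, 61.9, 35.1 and 34.4 in SF153 libraries and of 96.8, 100.3, 89.8 and 88.7 in DMSO libraries. SF153 libraries were all below DMSO libraries, and the log2 difference was -1.01 ± 0.19 (adjusted p = 0.00289). SDF2L1, which works with the BiP cochaperone DNAJB11, had a signal of 7.51, 6.13, 3.59 and 3.15 in SF153 libraries and of 16.6, 13.8, 14.9 and 15.7 in DMSO libraries. The groups were separate, and the log2 difference was -1.47 ± 0.22 (adjusted p = 0.00071).

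The J-domain cochaperones of BiP differed among themselves. DNAJB11 averaged 17.2 ± 3.33 in SF153 and 27.4 ± 2.94 in DMSO, and DNAJC3, a J-domain protein of the lumen also known as an inhibitor of PERK, averaged 9.02 ± 1.04 and 15.0 ± 1.74 in SF153 and DMSO. Both were called lower (-0.66 ± 0.15, adjusted p = 0.00653 for DNAJB11; -0.68 ± 0.12, adjusted p = 0.00191 for DNAJC3). The call of DNAJB11 was lost without mitochondrial and small RNA genes (adjusted p = 0.0736). DNAJB9 averaged 6.96 ± 1.15 in SF153 and 8.85 ± 2.29 in DMSO, with overlapping groups (-0.29 ± 0.19, adjusted p = 0.256).

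HYOU1, the nucleotide exchange factor that resets BiP, had a signal of 42.1, 49.5, 27.9 and 23.3 in SF153 libraries and of 44.3, 51.0, 58.2 and 50.3 in DMSO libraries. SF153 1.2 lay among the DMSO libraries and the other SF153 libraries lay below them, and the gene was not called (-0.56 ± 0.21, adjusted p = 0.0669). It was called lower when SF153 1.2 was left out (adjusted p = 0.0159). MANF, a small ER protein that binds BiP and can be secreted, averaged 15.0 ± 3.09 in SF153 and 29.7 ± 3.41 in DMSO and fell by 0.96 on the log2 scale (adjusted p = 0.00075). The MANF difference was -0.51 with the trend with length and signal removed (adjusted p = 0.00484). CRELD2, a luminal protein known to rise under ER stress, averaged 9.83 ± 1.71 in SF153 and 10.6 ± 1.53 in DMSO and was not called (-0.11 ± 0.15, adjusted p = 0.6).

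The calnexin cycle, in which lectin chaperones hold glycoproteins while PDIA3 forms their disulfide bonds, was lower at each of its 3 members here. CALR, calreticulin, had a signal of 224, 195, 136 and 141 in SF153 libraries and of 408, 389, 364 and 362 in DMSO libraries. CANX, the membrane-bound calnexin, had 108.8, 98.1, 53.2 and 53.3 in SF153 libraries and 189, 188, 161 and 158 in DMSO libraries. PDIA3 had 64.8, 66.6, 39.1 and 42.0 in SF153 libraries and 139, 138, 128 and 113.1 in DMSO libraries. In all 3 genes the groups were separate, and the log2 differences were -1.16 ± 0.15 for CALR (adjusted p = 0.00035), -1.21 ± 0.23 for CANX (adjusted p = 0.00266) and -1.30 ± 0.18 for PDIA3 (adjusted p = 0.000387). With the trend with length and signal removed they were -0.57 for CALR, -1.01 for CANX and -1.19 for PDIA3, all still called lower. Quantile normalization gave -0.69 for CALR, also called lower. The processed pseudogene PDIA3P1, which can share reads with PDIA3, averaged 6.03 in SF153 and 4.59 in DMSO and was not called (0.33, adjusted p = 0.178).

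The oxidoreductases spanned a wide range. PDIA6, a disulfide isomerase that also binds IRE1, had a signal of 27.7, 27.0, 14.2 and 13.2 in SF153 libraries and of 61.2, 59.0, 52.7 and 52.2 in DMSO libraries. The groups were separate, with a log2 difference of -1.48 ± 0.23 (adjusted p = 0.000865), close to that of SDF2L1, and which of the 2 was lower depended on the pseudocount. TXNDC5, another thioredoxin-fold isomerase, averaged 14.2 ± 2.77 in SF153 and 32.9 ± 1.76 in DMSO (-1.17 ± 0.13, adjusted p = 0.000144). PDIA4 averaged 7.97 ± 2.35 in SF153 and 16.0 ± 1.46 in DMSO (-0.96 ± 0.17, adjusted p = 0.00184).

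ERO1A, the oxidase that recharges the isomerases, had a signal of 26.6, 28.2, 34.5 and 33.5 in SF153 libraries and of 46.8, 47.7, 54.8 and 47.6 in DMSO libraries. Its SF153 signal was higher in batch 2 than in batch 1, both below all DMSO libraries, and the log2 difference was -0.67 ± 0.10 (adjusted p = 0.000792). P4HB, the founding disulfide isomerase and a subunit of prolyl 4-hydroxylase, averaged 142 ± 26.4 in SF153 and 213 ± 5.73 in DMSO (-0.60 ± 0.12, adjusted p = 0.00351). The P4HB call was lost without mitochondrial and small RNA genes (adjusted p = 0.0572) and when the trend with length and signal was removed (-0.12, adjusted p = 0.223).

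PPIB, cyclophilin B, a proline isomerase of the ER, had a signal of 108.8 and 108.6 in the batch 1 SF153 libraries and of 46.3 and 46.0 in batch 2, and of 209, 198.3, 172 and 166 in DMSO libraries. The batch 2 SF153 libraries thus stood far below the batch 1 SF153 libraries, and both below DMSO (-1.37 ± 0.29, adjusted p = 0.00486). The call was lost with libraries averaged by treatment and batch (adjusted p = 0.0592). HSP90B1, the Hsp90 of the ER known as GRP94, had a signal of 153, 159, 133 and 121.9 in SF153 libraries and of 197, 193, 179.8 and 182 in DMSO libraries. Its log2 difference was -0.41 ± 0.09 (adjusted p = 0.00639), was not called without mitochondrial and small RNA genes (-0.07, adjusted p = 0.478) and was positive when the trend with length and signal was removed (0.04).

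Degradation factors, which recognise misfolded proteins and pass them back to the cytosol for the proteasome, were mostly not called. Of 9 genes, 3 were called lower and none higher, against 24.3% of all genes lower, and the median log2 difference was -0.16. Their summed signal was 365, 367, 341 and 351 in SF153 libraries and 428, 400.3, 403 and 403 in DMSO libraries, a narrow gap with no overlap. Without mitochondrial and small RNA genes 1 was called lower, DERL1, and 3 higher, EDEM3, OS9 and EDEM2, against 13.8% and 35.0% of all genes.

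DERL1, a rhomboid-like protein of the retrotranslocation complex, had a signal of 21.3, 22.5, 18.8 and 14.1 in SF153 libraries and of 36.9, 32.0, 28.03 and 27.8 in DMSO libraries. The groups were separate (-0.69 ± 0.15, adjusted p = 0.00597), and the call was lost with libraries averaged by treatment and batch (adjusted p = 0.0509). SEL1L, the adaptor of the ubiquitin ligase HRD1, had 20.5, 20.6, 25.5 and 26.1 in SF153 libraries and 33.2, 29.8, 31.6 and 30.1 in DMSO libraries. It was called lower (-0.42 ± 0.10, adjusted p = 0.0095), but not without mitochondrial and small RNA genes (-0.09, adjusted p = 0.563). HERPUD1, a stress-induced membrane protein of the same ligase complex, had 83.5, 77.9, 66.0 and 80.0 in SF153 libraries and 92.3, 94.2, 97.7 and 96.3 in DMSO libraries. It was called lower (-0.31 ± 0.08, adjusted p = 0.0142), while without mitochondrial and small RNA genes its difference was 0.03 (adjusted p = 0.784).

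SYVN1, the ligase HRD1 itself, averaged 14.9 ± 2.23 in SF153 and 16.4 ± 2.62 in DMSO (-0.13 ± 0.14, adjusted p = 0.512). Its annotated span overlaps that of FAU on the same strand, a ribosomal protein gene with a mean signal of 105 in SF153 and 388 in DMSO, so reads could be divided between them. The other 5 degradation genes, EDEM1, DERL2, EDEM3, OS9 and EDEM2, had log2 differences between -0.17 and 0.12, and in each the groups overlapped. EDEM1, EDEM2 and EDEM3 trim mannose from misfolded glycoproteins, and OS9 reads the trimmed glycans. OS9 had a signal of 81.1, 74.6, 69.5 and 69.7 in SF153 libraries and of 84.1, 75.2, 67.1 and 70.1 in DMSO libraries, a pattern that followed batch and not treatment (-0.01 ± 0.09, adjusted p = 0.969).

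All 3 translocon genes, which form the channel through which new chains enter the ER, were lower in SF153. SEC61G (ENSG00000132432.14, chr7:54752250-54759974, minus strand), the gamma subunit, showed the largest decrease of the 34 genes with the deposited scaling, though SDF2L1 was lower with the trend with length and signal removed. Its signal was 13.0, 9.81, 9.32 and 8.15 in SF153 libraries and 35.1, 35.1, 33.5 and 31.2 in DMSO libraries (-1.67 ± 0.13, adjusted p = 3.32e-05). SEC61B, the beta subunit, had 27.7, 32.0, 19.4 and 18.7 in SF153 libraries and 72.9, 66.1, 49.7 and 51.8 in DMSO libraries (-1.28 ± 0.19, adjusted p = 0.000651). In both genes the highest SF153 library was well below the lowest DMSO library.

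SEC61A1, the alpha subunit that forms the pore, had the smallest difference of the 3, with 50.5, 54.8, 44.2 and 44.1 in SF153 libraries and 63.9, 66.8, 60.3 and 64.9 in DMSO libraries (-0.40 ± 0.09, adjusted p = 0.00547). Its difference was -0.06 without mitochondrial and small RNA genes (adjusted p = 0.518), where SEC61G and SEC61B remained called lower (-1.34, adjusted p = 3.91e-05 and -0.95, adjusted p = 0.00116).

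Transcript length ran alongside the differences. Over the 34 genes, the log2 difference had a Pearson r of 0.58 with the log of transcript length, and over 15067 genes with a length it was -0.03. These are correlations across genes that share the same libraries, and genes are not independent replicates. The 3 members shorter than 1000 bases, SDF2L1, SEC61B and SEC61G, were all called lower with a median of -1.47. Of all genes in that range, 14.6% were called lower with a median of 0.14. Genes of all types were pooled there, noncoding genes included, so this is not a background of short coding genes alone. Of the 7 members of at least 5000 bases, 3 were called lower with a median of -0.17, against 20.4% of all genes and a median of -0.03. With the trend with length and signal removed, 19 of the 22 were again called lower, against 18.6% of all genes. That trend was fitted over all genes, so its removal does not take out a relation with length particular to the members. The part of length in these differences was not tested.

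**Figure D4:**
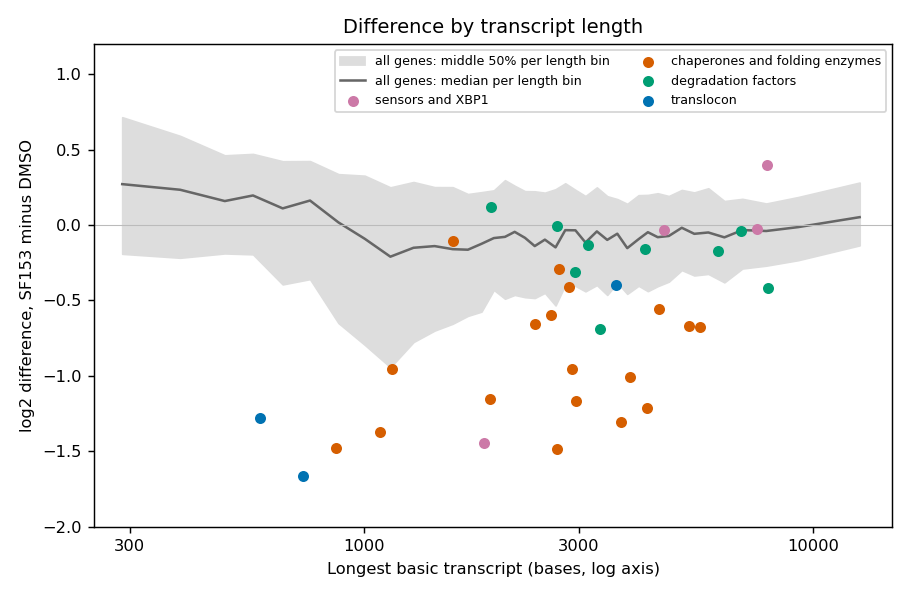
Log2 difference, SF153 minus DMSO, against transcript length in bases (log axis) for the 34 genes, coloured by role, with the median of all genes along length as a line and their interquartile range as a grey band. Short members such as SEC61G (-1.67) lie far below the median of all genes shorter than 1000 bases (0.14), genes of all types pooled. Of the 7 members of at least 5000 bases, 3 were called lower.

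The decrease was larger in batch 2 for several chaperones. Of the 34 genes, 28 had a negative difference in both batches, and in 24 the difference was more negative in batch 2. The same counts over all genes were not made. Of the 22 genes called lower, 19 were more negative in batch 2. All 22 were negative in both batches, which follows from their SF153 libraries all lying below their DMSO libraries. The treatment by batch interaction was called in 4 of the 34 genes, all more negative in batch 2, as it was in 0.997% of all genes. The log2 difference of PPIB was -0.90 in batch 1 and -1.85 in batch 2 (interaction -0.95 ± 0.09, adjusted p = 0.0029). CANX had -0.86 and -1.57 in batches 1 and 2 (interaction -0.71 ± 0.10, adjusted p = 0.0185), and HSPA5 had -0.68 and -1.34 (interaction -0.66 ± 0.10, adjusted p = 0.029). PDIA6 had -1.11 and -1.86 (interaction -0.75 ± 0.13, adjusted p = 0.0476), and this call was lost without mitochondrial and small RNA genes (adjusted p = 0.0719) and with median-of-ratios scaling (adjusted p = 0.0507).

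XBP1 followed the same order, -1.06 in batch 1 and -1.83 in batch 2, without a called interaction (adjusted p = 0.0967). HYOU1 had -0.06 in batch 1 and -1.06 in batch 2 (interaction adjusted p = 0.0804). Within batch 1 alone 19 members were called lower and none higher, against 14.6% and 5.54% of all genes. Within batch 2 alone 19 were lower and 1 higher, against 15.8% and 5.53% of all genes. Batch 2 is also where the mitochondrial share of SF153 libraries was 16.8%. In the fit without mitochondrial and small RNA genes the interactions of PPIB, CANX and HSPA5 remained called. Whether that share bears on the difference between batches was not tested. There were 2 libraries per treatment and batch.

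**Figure D5:**
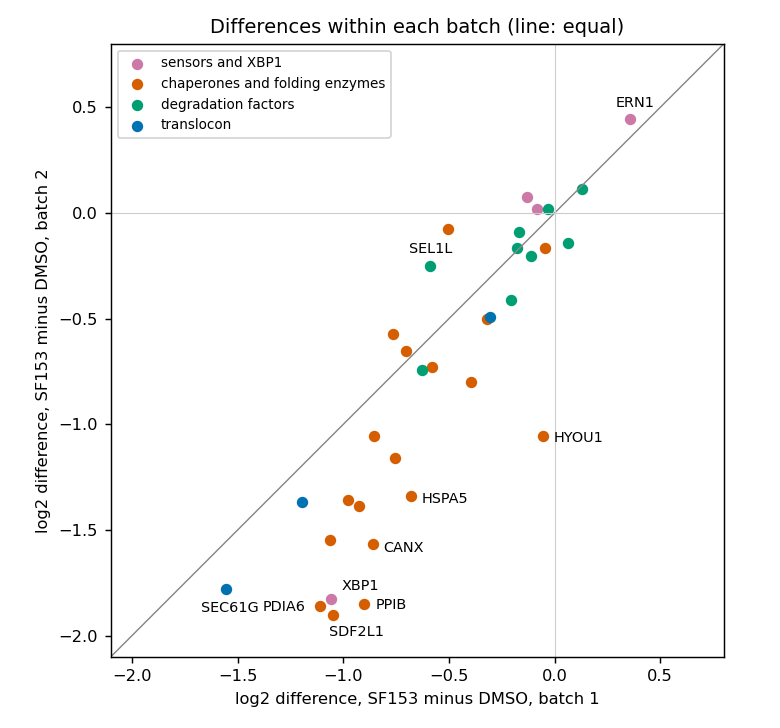
Log2 difference, SF153 minus DMSO, in batch 2 against that in batch 1 for the 34 genes, coloured by role, with a line of equal difference. PPIB (-0.90 and -1.85 in batches 1 and 2), CANX, HSPA5 and PDIA6 lie below the line, and of the genes called lower DNAJC3, ERO1A and SEL1L lie above it.

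Other genes of the pathway, taken from lists of known function, were examined beside the 34. These lists too were set with earlier results of these data known. Of 116 listed genes 108 were tested, and 52 were called lower and 4 higher, against 24.3% and 13.0% of all genes. These counts depended on the scaling, with 36 lower and 23 higher without mitochondrial and small RNA genes, against 13.8% and 35.0% of all genes. With the trend with length and signal removed 44 were lower and 14 higher, against 18.6% and 20.3% of all genes. Genes that bring chains into the ER and glycosylate them were mostly lower. Of these, 23 of 26 translocation and glycosylation genes were called lower and 1 higher (SEC61A2, 0.31, named after its value was seen), with a median log2 difference of -0.98. Without mitochondrial and small RNA genes 19 of them were lower and 1 higher, with a median of -0.65. The signal peptidase subunits SPCS2 (13.5 ± 6.18 in SF153 and 49.3 ± 7.66 in DMSO, -1.87) and SPCS1 (8.87 ± 1.93 in SF153 and 26.4 ± 1.88 in DMSO, -1.49) and the oligosaccharyltransferase subunits OST4 (-1.37) and OSTC (-1.29) fell most.

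Of 30 other folding factors 13 were called lower and 2 higher, with a median of -0.26, against 24.3% and 13.0% of all genes. Without mitochondrial and small RNA genes 7 were lower and 7 higher, with a median of 0.06, against 13.8% and 35.0% of all genes. PRDX4, the peroxiredoxin of the ER, had the largest decrease, at 6.30 ± 1.94 in SF153 and 22.3 ± 4.05 in DMSO (-1.70 ± 0.21, adjusted p = 0.000221), followed by TMX4 (-0.98), the collagen chaperone SERPINH1 (-0.96) and ERP29 (-0.93). The genes called higher, named after their values were seen, were FKBP11, a proline isomerase (61.8 ± 4.21 in SF153 and 37.2 ± 3.20 in DMSO, 0.72), and UGGT2 (12.5 ± 2.07 in SF153 and 8.78 ± 1.396 in DMSO, 0.47). Of 23 other degradation factors 9 were lower and none higher, with a median of -0.34. Without mitochondrial and small RNA genes 7 were lower and 6 higher, with a median of -0.01, against 13.8% and 35.0% of all genes. With the trend removed 7 were lower and 5 higher, against 18.6% and 20.3% of all genes. The lowest were the ubiquitin ligase RNF5 (-1.51), SELENOK (-0.99), VCP, the ATPase that pulls proteins out of the membrane (-0.71), and the ligase RNF139 (-0.70).

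Of 10 other sensors, processing enzymes and transducers, 1 was called lower and none higher, against 24.3% and 13.0% of all genes. Without mitochondrial and small RNA genes 1 was lower and 4 were higher, against 13.8% and 35.0% of all genes. With the trend removed 1 was lower and 2 were higher, against 18.6% and 20.3% of all genes. The gene called lower was RTCB, the RNA ligase that joins the XBP1 exons cut by IRE1. It averaged 21.4 ± 3.30 in SF153 and 38.1 ± 4.21 in DMSO (-0.81 ± 0.12, adjusted p = 0.000747). Among 6 genes of the PERK arm, DDIT3, the transcription factor CHOP, was higher at 47.6 ± 4.38 in SF153 and 31.8 ± 2.63 in DMSO (0.57 ± 0.09, adjusted p = 0.00106). EIF2S1, which encodes the eIF2 alpha subunit that PERK phosphorylates, was lower at 24.4 ± 10.7 in SF153 and 70.6 ± 8.96 in DMSO (-1.59 ± 0.27, adjusted p = 0.0014). The other 4 genes of the arm were not called. Among them was ATF4, named after its values were seen, at 170.3 ± 5.0 in SF153 and 187 ± 19.5 in DMSO (-0.13, adjusted p = 0.24). ATF4 was 0.40 and called higher when the trend with length and signal was removed (adjusted p = 0.0136). Without mitochondrial and small RNA genes 2 of the 6 were called higher and 1 lower, against 35.0% and 13.8% of all genes. Of 13 cargo receptors and exit factors 5 were lower and none higher, against 24.3% and 13.0% of all genes. Without mitochondrial and small RNA genes 1 was lower and 3 were higher, against 13.8% and 35.0% of all genes. KDELR1 (-0.81) and KDELR2 (-0.61) return KDEL-tagged chaperones from the Golgi. Of these and LMAN2 (-0.61) and SEC23B (-0.59), only KDELR1 was also called lower without those genes (adjusted p = 0.00871).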

How the data were processed

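Total RNA of NKM-1 cells was depleted of ribosomal RNA, randomly primed and dUTP-marked to keep strand, per the labels' protocols. The deposited signal is 1 value per gene and library in 4 files of 2 libraries each. The authors' file labels call it both CPM and TPM, and the column totals differ, so it is neither as written. The design had assumed TPM, and the same test was applied. Per the submitters' processing notes, the tools were CASAVA 1.8.2, STAR, edgeR and Salmon and the build GRCh38, with no role stated. No source used here says whether counting used strand. Depth is unknown, so no counting intervals are given.

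The test was limma 3.58.1 (R 4.3.3), two-sided, on log2(signal + 1). Its variance prior followed an intensity trend. It set 4 SF153 against 4 DMSO libraries, with no term for batch, over the 15542 genes whose mean signal was 1 or more, and p-values were adjusted by Benjamini and Hochberg. All 34 members passed this filter. Differences on this scale understate changes of low genes. The deposited values were used without setting totals equal. One alternative scaling left 333 mitochondrial and small RNA genes out and set the libraries to equal totals of the rest. The trend with length and signal was removed by loess with a span of 0.3. Positions and lengths (longest basic transcript) are from GENCODE 29 on GRCh38, promoters from RefSeq on GRCh38.p14. The method was tested on simulated data with independent libraries and no batch or scaling difference, so that test says nothing about these features.

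The members and lists were chosen with earlier results of these data known. All members may be named, and from each other list up to 4 called genes with the largest absolute difference, beside genes described as named after their values were seen. The labels give each library a batch, shared by SF153 and DMSO, and this is the only pairing used. Taken over all genes, the values show little of it. Deviations from group means of libraries with the same number in SF153 and DMSO had a mean r of 0.0325 over genes. Some members still differed by batch in both treatments. SEC61B had 72.9, 66.1, 49.7 and 51.8 in DMSO libraries and 27.7, 32.0, 19.4 and 18.7 in SF153 libraries. Others, such as EIF2AK3, did not. The main test has no batch term and leaves such differences in its spread. Alternatives covered the pseudocount, the filter, 3 other scalings, the removal of the length and signal trend, the variance prior, batch as a block, averaging of libraries, each batch alone and each library left out.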

Additional observations from a re-analysis of the deposited data

Results flagged for a closer look

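In 7 of 68 groups of 4 libraries, 1 library stood apart from the other 3, where chance alone flags about 1 group in 20. TXNDC5 was 30.3 in DMSO 2.2 and between 33.4 and 33.98 in the other DMSO libraries. ERO1A was 54.8 in DMSO 2.1, against 46.8 to 47.7 in the others. ATF6 was 24.3 in DMSO 2.2, against 28.8 to 29.5. DERL2 was 33.0 in SF153 1.2, against 27.2 to 27.4. EDEM3 was 43.9 in SF153 1.2, against 37.3 to 38.0, and 44.1 in DMSO 2.1, against 38.7 to 39.5. EDEM2 was 8.60 in SF153 2.1, against 10.9 to 11.0.

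The difference between SF153 and DMSO was itself different between batches, by limma's interaction term with adjustment over all genes, in PPIB (-0.95), PDIA6 (-0.75), CANX (-0.71) and HSPA5 (-0.66), each more negative in batch 2.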

How the results depend on the processing

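Each result was recomputed under 21 alternatives. Pseudocounts of 0.1 and 5 and a minimum mean of 5 changed no member's direction or call. With batch as a replicate block, ERN1 lost its call (adjusted p = 0.0582), so 0 members were called higher, and no other member's call changed. The number of members called higher was also 0 with no filter, without a trend in the variance prior and in batch 1 alone, and 5 without mitochondrial and small RNA genes. With 1 library left out it was 0 to 1, the members lower were 22 to 23 and their median was -0.67 to -0.52. The members' median was -0.44 with the trend removed, -0.41 with quantile normalization and -0.29 without mitochondrial and small RNA genes, where the median of all genes was 0.05, 0.07 and 0.26.

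Over all genes, 3131 were called in batch 1 alone (861 higher, 2270 lower), 3315 in batch 2 alone (859 higher, 2456 lower) and 3429 with libraries averaged by treatment and batch (910 higher). The genes called higher numbered 3058 with the trend removed, 3230 with quantile normalization and 5382 without mitochondrial and small RNA genes, which left 2115 lower.

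Of the members that changed sign, HSP90B1 and HERPUD1 were called lower with the deposited scaling and the others were not called. In batch 1 alone EDEM3 was 0.0612. In batch 2 alone ATF6 was 0.0750, EIF2AK3 0.0205 and OS9 0.0211. With median-of-ratios scaling ATF6 was 0.0436, EIF2AK3 0.0388, EDEM3 0.0316 and OS9 0.0681. With quantile normalization SYVN1 was 0.0711, ATF6 0.165, EIF2AK3 0.151, CRELD2 0.0475, EDEM1 0.0125, EDEM3 0.146, DERL2 0.0394 and OS9 0.184. With the trend removed HSP90B1 was 0.0395, SYVN1 0.0625, ATF6 0.0504, EIF2AK3 0.127, CRELD2 0.137, EDEM3 0.0249 and OS9 0.176. Without mitochondrial and small RNA genes DNAJB9 was 0.0142, SYVN1 0.192, HERPUD1 0.0294, ATF6 0.303, EIF2AK3 0.288, CRELD2 0.205, EDEM1 0.168, EDEM3 0.293, DERL2 0.176 and OS9 0.333. With 1 library left out, EIF2AK3 was 0.0633 without SF153 1.2, 0.0423 without DMSO 1.2, 0.0465 without DMSO 2.2; OS9 was 0.0216 without SF153 2.1, 0.0205 without SF153 2.2, 0.0563 without DMSO 1.1, 0.00327 without DMSO 1.2; EDEM3 was 0.000639 without DMSO 2.1. The cause of these changes was not tested. Averaging libraries left 2 values per group and ended the calls of 7 members, HSP90B1, P4HB, SEL1L, HERPUD1, DERL1, SEC61A1 and PPIB (adjusted p between 0.0509 and 0.0912).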
